A study of Mus musculus with 16 samples.

Results

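In mouse liver, 10 genes of hepatic stellate cells and of the extracellular matrix were followed: Ccn2, Tgfb1, Pdgfrb, Col1a1, Col1a2, Col3a1, Acta2, Des, Lrat and Timp1. They were taken from the array by gene name among the non-control spots, with Ccn2 under its older name Ctgf. These 10 genes are read by 22 of the 41174 probes, and all 10, of 27670 genes on the array, were among the 18474 bright enough to be tested. They were named by gene, with no cutoff on their levels.

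Stellate cells lie between the hepatocytes and the sinusoidal endothelium, store vitamin A as retinyl esters and, after injury, can turn into contractile cells that make collagen. Transforming growth factor beta drives that change, platelet-derived growth factor drives the growth of the cells, and CCN2 is a secreted matricellular protein induced by both TGF-beta signalling and the transcription co-activator YAP. Most of these genes are not exclusive to stellate cells: portal fibroblasts and vascular smooth muscle share the collagens, Acta2 and Des, endothelial cells and hepatocytes can make Ccn2, and many cell types make Tgfb1 and Timp1.

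Liver RNA of C57BL/6 males aged 3 months was read on 16 one-colour Agilent arrays, 1 sample each. Mice were wild type or carried a liver knockout of the glucocorticoid receptor (GR, gene Nr3c1), and either had no treatment or received dexamethasone, a synthetic glucocorticoid, which makes 4 groups of 4 arrays. Sources of the knockout samples speak of no treatment, their titles carry PBS, and the treatment protocol speaks of vehicle. The sources used here do not give the Cre line, the deleted part of the gene, or the dose, route and duration of dexamethasone. Nor do they say which liver cells lost the receptor, so stellate cells may still carry it. Nothing in the labels states that each sample was a separate mouse, so p-values measure the spread between these samples.

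Levels are log2 signals relative to the 75th percentile of the array, so a level of 0 equals that percentile and 1 unit is a doubling; levels of different probes cannot be set against each other. Nr3c1 lay between 1.93 and 2.52 on the wild-type arrays and between -0.10 and 0.56 on the knockout arrays (lower by a log2 change of -1.99, SE 0.14, adjusted p = 1.63e-05 untreated, and -1.96, SE 0.14, adjusted p = 6.36e-06 treated, limma). Untreated knockout array 1 and untreated wild-type array 4 were the dimmest, with 75th percentiles of 309 and 401 against 523 to 692 on the other 14, and untreated knockout array 1 correlated least with its group (mean r 0.963 across genes, against 0.980 at most for the other 3). Every slide held arrays of 1 group, and slide therefore cannot be told apart from group. Precision is limited by there being 4 arrays a group. In whole liver, fewer cells of a type and less RNA per cell cannot be told apart. All 10 hepatocyte markers were above background on every array, and of 12 stellate markers that are no members 11 or 12 were, so both the liver tissue and its stellate cells were represented by their markers.

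The probes are 60 bases long. Sequences are shown for the probe of Tgfb1, whose fall in wild type passed the test, and for Acta2 and Des, whose readings turn on single arrays or on which probe is read. They are written 5′ to 3′ from the deposited array annotation, with places on the mm7 build.
Tgfb1, A_51_P390715, chr7:22478890-22478949: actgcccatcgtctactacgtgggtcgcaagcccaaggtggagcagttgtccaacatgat
Acta2, A_51_P450957, chr19:33949738-33952992: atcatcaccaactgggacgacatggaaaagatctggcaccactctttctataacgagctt
Des, A_51_P335969, chr1:75593023-75593248: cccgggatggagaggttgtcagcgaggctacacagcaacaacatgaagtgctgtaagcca
The Acta2 probe spans 3255 bases of genome and the Des probe 226, each more than the 60 bases of the probe, so each crosses at least 1 intron. The Acta2 sequence codes for a stretch that the actins share closely, so other actin transcripts may contribute to its signal. Of the other members, the probes that stand for the gene lie on mm7 at chr10:24349402-24349461 for Ccn2, chr11:95060800-95060859 for Col1a1, chr6:4493505-4493564 for Col1a2, chr1:45585395-45585454 for Col3a1, chr3:82997855-82997914 for Lrat and chrX:19307699-19307758 for Timp1. The annotation deposited with the arrays does not say whether a probe lies in coding sequence or in an untranslated region.

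Dexamethasone raised Ccn2 in wild-type and in receptor-knockout livers, lowered Tgfb1 in wild type, and moved none of the other 8 genes past the test in either genotype. Tgfb1 differed by -0.65 in knockout, beside -0.71 in wild type, and there it just missed the test (adjusted p = 0.0505, limma). The 2 responses of Tgfb1 were not told apart (interaction 0.06), and its wild-type call was lost under normexp background correction (-0.43). In wild type 2 of the 10 members were called at an adjusted p under 0.05 (limma, Benjamini-Hochberg over all 18474 genes), where 12% of all tested genes were called. Of the 10, 1 was called higher, against 5.19% of all genes, and 1 lower, against 6.79%. In knockout 1 of 10 was called, against 3.59% of all genes: 1 higher, where 1.19% of all genes were, and 0 lower, where 2.4% were (limma, with 4 of the 10 at an unadjusted p under 0.05). The median change of the 10 was 0.05 in wild type, beside -0.03 over all genes, and -0.25 in knockout, beside 0 over all genes. The plot of levels by array shows the 10 genes side by side.

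**Figure D1:**
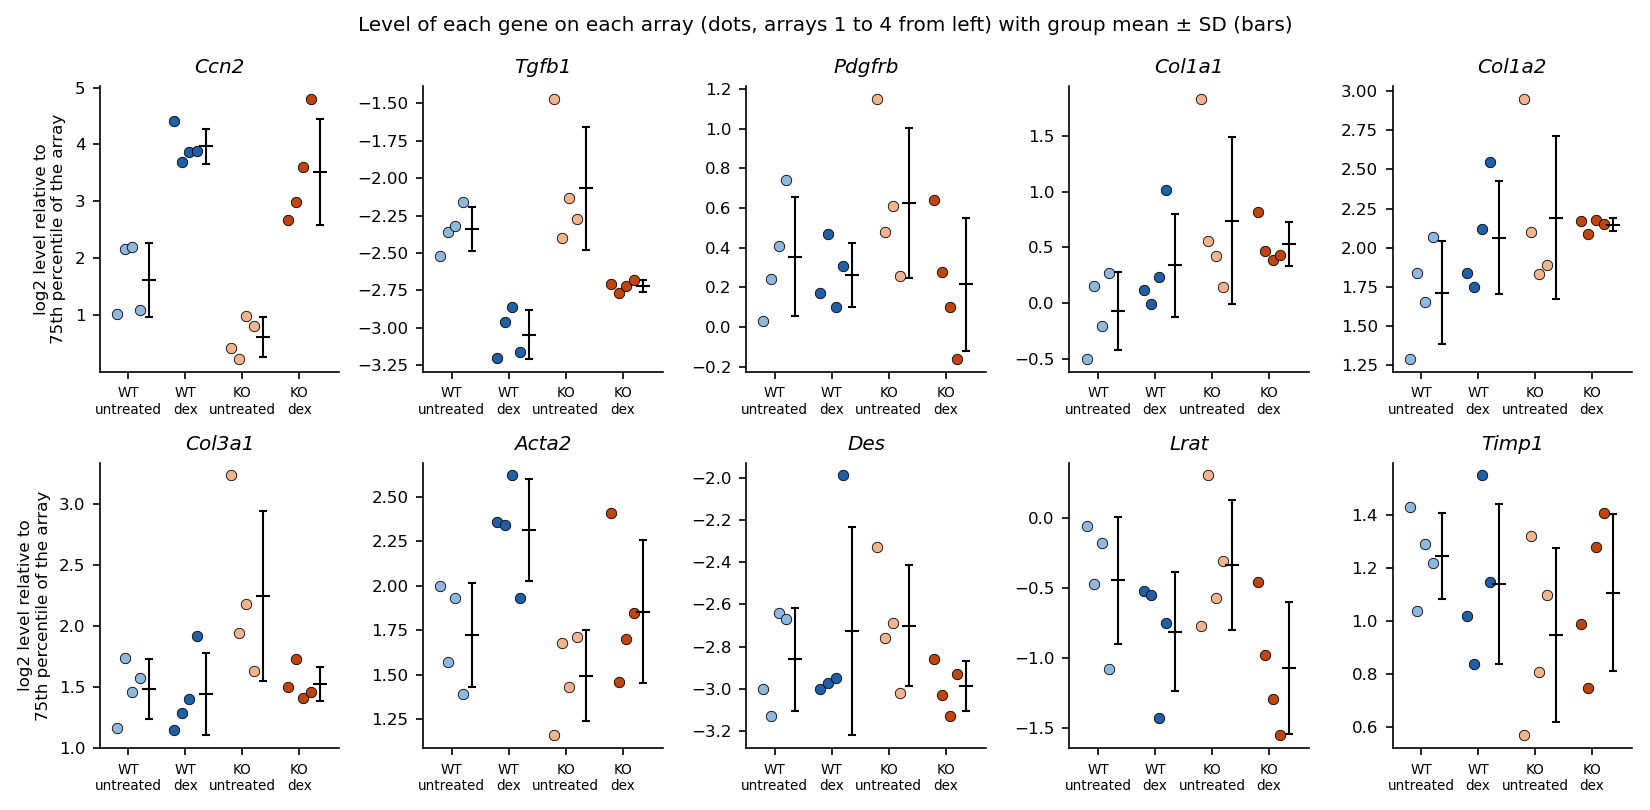
Level of each of the 10 genes on the 16 arrays (log2 signal relative to the array's 75th percentile), 4 arrays per group in the order 1 to 4 from the left, with the group mean ± SD as a bar at the right. WT is wild type, KO the receptor knockout and dex dexamethasone. Ccn2 separates treated from untreated arrays in both genotypes (all treated arrays at 2.68 or above, all untreated at 2.20 or below), Tgfb1 lies lower on all 8 treated arrays, and untreated knockout array 1 is the highest point for the 3 collagens and Pdgfrb.

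Among the ligands, Ccn2 showed the largest change of the 10 members in both genotypes. Its levels on untreated wild-type arrays 1 to 4 were 1.01, 2.16, 2.20 and 1.09, and on treated ones 4.41, 3.70, 3.86 and 3.89. On untreated knockout arrays they were 0.42, 0.23, 0.99 and 0.81, and on treated ones 2.68, 2.99, 3.60 and 4.80. Every treated array stood above every untreated array, and the treated knockout arrays spread over the widest range of the 4 groups, with array 4 the highest of all 16.

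The rise of Ccn2 was 2.35 on the log2 scale in wild type (95% interval 1.49 to 3.21, SE 0.40, 5.1-fold, adjusted p = 0.0023, n = 4 per group) and 2.90 in knockout (2.04 to 3.77, SE 0.40, 7.49-fold, adjusted p = 0.00215). The difference between the 2 responses was 0.56 with an interval of -0.66 to 1.77 (adjusted p = 0.747), so neither a somewhat smaller nor a larger response in knockout was resolved. No member was called for the interaction, where 4.6% of all genes were (1.91% higher in knockout, 2.69% lower), and 0 of the 10 had an unadjusted p under 0.05. With 1 array left out at a time, the rise stayed called and ranged from 2.15 to 2.54 in wild type and from 2.48 to 3.18 in knockout.

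Untreated knockout livers had a lower mean Ccn2 level, 0.61 ± 0.35 (SD, n = 4) against 1.62 ± 0.65 in untreated wild type. All 4 knockout arrays lay below all 4 wild-type arrays, although the highest knockout array, at 0.99, was just under the lowest wild-type array, at 1.01. The difference of -1 (interval -1.86 to -0.14) was not called (adjusted p = 0.185). Ccn2 was the 1 member of 10 whose untreated groups did not overlap, while 11.7% of all genes had untreated groups that did not overlap. Between treated groups the Ccn2 difference was -0.45 (-1.31 to 0.41), and those groups overlapped. In ascending order the group means ran from untreated knockout through untreated wild type to treated knockout (3.52 ± 0.94) and treated wild type (3.96 ± 0.31). The first and the last pair of neighbours in that order were tested and not called, and the middle pair, untreated wild type and treated knockout, was not tested, although its ranges of 1.01 to 2.20 and 2.68 to 4.80 did not overlap.

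Tgfb1 encodes the main profibrotic TGF-beta ligand. Its levels were -2.52, -2.36, -2.32 and -2.16 on untreated and -3.20, -2.96, -2.86 and -3.16 on treated wild-type arrays. In knockout they were -1.47, -2.40, -2.13 and -2.27 untreated and -2.71, -2.77, -2.72 and -2.68 treated. In both genotypes all treated arrays lay below all untreated ones, and untreated knockout array 1 stood well above the other 15.

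Tgfb1 fell by 0.71 on the log2 scale in wild type (log2 -0.71, SE 0.17, interval -1.07 to -0.34, 1.63-fold, adjusted p = 0.0151, limma). In knockout the difference was -0.65 (SE 0.17, -1.02 to -0.28, adjusted p = 0.0505), which missed the threshold narrowly, and the interaction was 0.06 (-0.46 to 0.57). The groups of 2 members, Ccn2 and Tgfb1, did not overlap in wild type, where this held for 22.1% of all genes, and the same 2 in knockout, where it held for 9.65%. The call in wild type was lost without treated wild-type array 1 (-0.66, adjusted p = 0.054) and under normexp background correction (-0.43, adjusted p = 0.29). The knockout difference was called without untreated knockout array 1 (-0.45, adjusted p = 0.043) or array 2 (-0.76, adjusted p = 0.04), while under normexp it was -0.17 (adjusted p = 0.792). Under treatment Tgfb1 was the 1 member whose genotypes did not overlap, all 4 knockout arrays being higher (0.33, -0.04 to 0.69, adjusted p = 0.189). Of all genes 31.5% had treated genotypes that did not overlap.

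**Figure D2:**
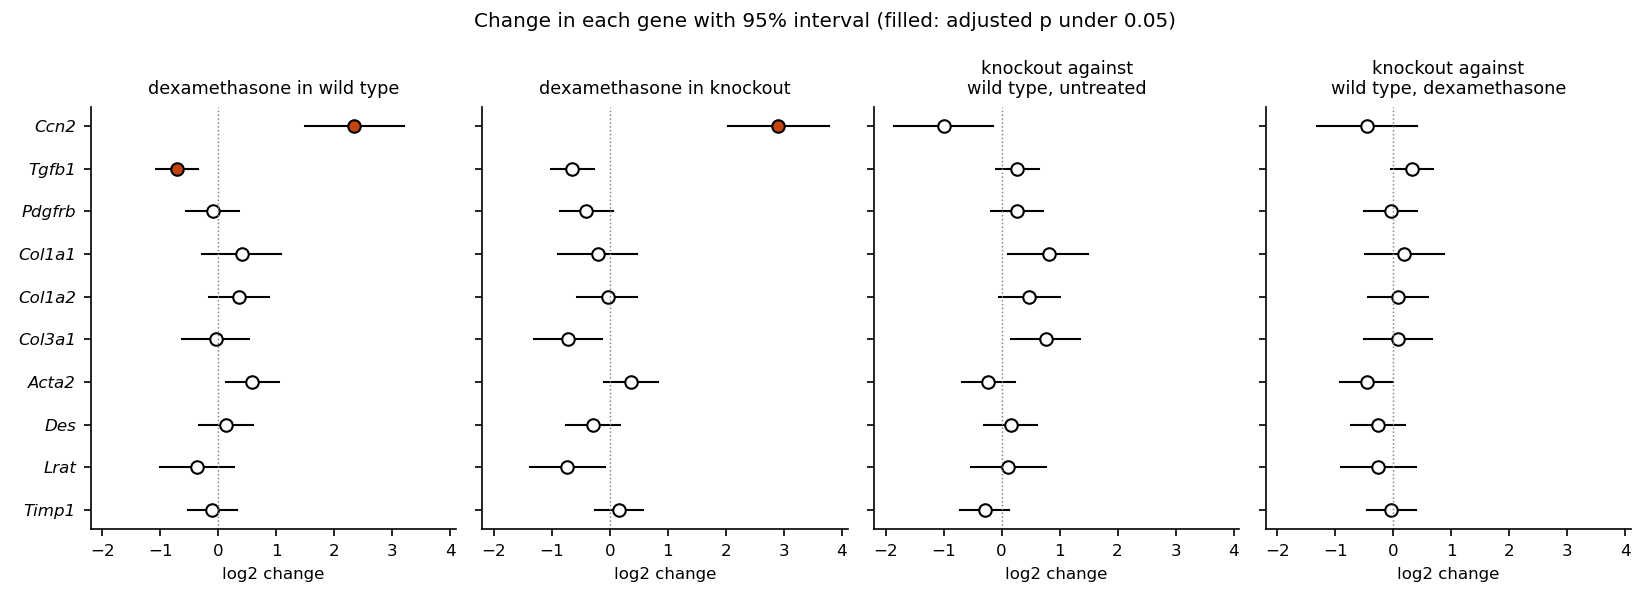
Log2 change of each of the 10 genes with its 95% interval in 4 comparisons, each of 4 arrays against 4, from 1 limma fit over all 16 arrays. Filled points passed an adjusted p of 0.05 over all tested genes: Ccn2 in both responses to dexamethasone and Tgfb1 in wild type. Most other intervals include 0, and the untreated comparison of genotypes has Col1a1 and Col3a1 above 0 without a call.

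Of 27 listed genes of the TGF-beta pathway, Tgfb1 among them, 26 were tested. Over all genes 12% were called in wild type and 3.59% in knockout. In wild type 1 rose and 1 fell, the latter Tgfb1 itself, with a list median of -0.06 beside -0.03 over all genes. Skil, a repressor of SMAD transcription factors, stood at -0.77, -0.80, 0.00 and -0.55 on untreated and 0.15, 0.08, 0.26 and 0.74 on treated wild-type arrays, a rise of 0.84 (SE 0.19, adjusted p = 0.0118). In knockout its difference was 0.03 (SE 0.19), and the difference between the responses was not called (-0.81, adjusted p = 0.119). No gene of the list was called in knockout by limma, where 3 had an unadjusted p under 0.05. Without untreated knockout array 1 there was 1 call each way in knockout.

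Between treated groups, Skil was lower in knockout than in wild type (log2 -1.06, SE 0.19, adjusted p = 0.00167). Inhba, the activin subunit beta A, was higher. It stood at -0.05, 0.61, 0.17 and -0.18 in treated wild type and at 1.96, 1.96, 1.60 and 1.02 in treated knockout (log2 1.5, SE 0.40, adjusted p = 0.0153). These 2 were the called genes among the 26, where 22.3% of all genes were called between treated genotypes.

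Of the other CCN family members 3 of 5 listed were tested, and Ccn4, a WNT-induced matricellular protein, moved opposite to Ccn2. Its levels in wild type were -2.89, -2.52, -2.25 and -2.53 untreated and -4.10, -3.31, -3.06 and -4.22 treated. In knockout they were -1.85, -2.10, -2.12 and -2.31 untreated and -2.66, -3.33, -3.78 and -3.35 treated. Ccn4 fell by 1.12 in wild type (log2 -1.12, SE 0.27, adjusted p = 0.0144) and by 1.19 in knockout (log2 -1.19, SE 0.27, adjusted p = 0.0264). Treated and untreated arrays did not overlap in either genotype. Under normexp background correction neither was called (-0.55, adjusted p = 0.19, and -0.34, adjusted p = 0.62), the wild-type call was lost without treated wild-type array 1 (-0.98, adjusted p = 0.055), and the knockout call was lost when any of 5 arrays was left out, with untreated arrays 2 (adjusted p = 0.06) and 3 (0.05) and treated arrays 2 (0.064), 3 (0.09) and 4 (0.064). The knockout call was also lost with only the groups compared (adjusted p = 0.071) and without the 2 dimmest arrays (adjusted p = 0.054).

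Among 22 listed targets of YAP and its TEAD partners, which include Ccn2, 20 were tested. In wild type 3 rose, Ccn2 among them, and 3 fell, with a list median of -0.15, where 12% of all genes were called. Gadd45a, a growth arrest and DNA damage gene, fell by 1.84 (log2 -1.84, SE 0.30, adjusted p = 0.00186), from 0.51, -0.16, 0.01 and -0.97 untreated to -2.11, -1.50, -2.48 and -1.90 treated. In knockout Gadd45a stood at 0.98, 1.76, 1.97 and 1.96 untreated and 2.47, 2.51, 2.43 and 1.92 treated, and its response differed from that in wild type (interaction 2.51, SE 0.43, adjusted p = 0.00555). Gadd45a was also higher in knockout than in wild type, by 1.82 untreated (adjusted p = 0.0088) and by 4.33 treated (adjusted p = 5.05e-06). The untreated call of Gadd45a was lost when only these 2 groups were fitted (1.82, adjusted p = 0.069).

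In knockout 2 of these genes rose, Ccn2 and Igfbp3, and 1 fell, where 3.59% of all genes were called. Igfbp3, a binding protein for insulin-like growth factors, rose by 0.77 (SE 0.19, adjusted p = 0.0372) beside 0.91 (SE 0.19, adjusted p = 0.00672) in wild type. The knockout call of Igfbp3 was lost when any of 8 arrays was left out, with changes of 0.62 without untreated array 4 to 0.80 without treated array 3. It was also lost under 5 other settings, lowest with the mean of its probes (0.50, adjusted p = 0.57).

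Pdgfrb, the receptor that carries the growth signal of PDGF into stellate cells and pericytes, was called in no comparison. Its levels were 0.03, 0.24, 0.41 and 0.74 in untreated and 0.17, 0.47, 0.10 and 0.31 in treated wild type. In knockout they were 1.15, 0.48, 0.61 and 0.26 untreated and 0.64, 0.28, 0.10 and -0.16 treated. All 4 groups overlapped. The change with dexamethasone was -0.09 (-0.55 to 0.36) in wild type and -0.41 (-0.86 to 0.05) in knockout. The knockout value was -0.23 without untreated knockout array 1, the highest of the 16.

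The 6 other PDGF ligands and receptors on the list were all tested. Pdgfra, the second PDGF receptor, stood at -2.92, -2.62, -2.30 and -1.89 in untreated and -1.23, -1.24, -1.78 and -1.27 in treated wild type. It stood at -2.43, -2.41, -2.53 and -2.40 in untreated and -1.66, -1.54, -1.80 and -1.68 in treated knockout. Pdgfra thus rose in both, by 1.05 in wild type (SE 0.19, adjusted p = 0.00292) and by 0.77 in knockout (SE 0.19, adjusted p = 0.0362). No treated array of Pdgfra was as low as any untreated array of its genotype. The knockout call was lost without any of 7 knockout arrays, all but untreated array 1, at adjusted p of 0.061 to 0.094. It was also lost under 2 other settings (highest adjusted p = 0.24).

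Pdgfa, a PDGF ligand, fell by 0.90 in wild type (log2 -0.90, SE 0.22, adjusted p = 0.0142), a call lost without untreated array 2 (-0.82, adjusted p = 0.054). In knockout Pdgfa differed by -0.08 (SE 0.22), and treated knockout livers held 1.06 more than treated wild type (adjusted p = 0.00337). The interaction for Pdgfa was 0.83 and not called (adjusted p = 0.161).

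Col1a1, Col1a2 and Col3a1, the fibrillar collagens that make up most of scar matrix, were not called in any comparison. Col1a1 stood at -0.50, 0.15, -0.21 and 0.27 in untreated and 0.12, -0.01, 0.23 and 1.01 in treated wild type, and at 1.83, 0.56, 0.42 and 0.14 in untreated and 0.82, 0.47, 0.39 and 0.43 in treated knockout. Col1a2 stood at 1.29, 1.84, 1.65 and 2.07 in untreated and 1.84, 1.75, 2.12 and 2.55 in treated wild type, and at 2.95, 2.10, 1.83 and 1.89 in untreated and 2.17, 2.09, 2.18 and 2.15 in treated knockout. Col3a1 stood at 1.16, 1.74, 1.46 and 1.57 in untreated and 1.15, 1.29, 1.40 and 1.92 in treated wild type, and at 3.23, 1.94, 2.18 and 1.63 in untreated and 1.5, 1.73, 1.41 and 1.46 in treated knockout. For each of the 3, untreated knockout array 1 was the highest of all 16 arrays, and treated wild-type array 4 was the highest of the wild-type arrays.

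With dexamethasone, Col1a1 differed by 0.41 (-0.28 to 1.09) in wild type and -0.21 (-0.90 to 0.47) in knockout. Col1a2 differed by 0.36 (-0.16 to 0.87) and -0.04 (-0.56 to 0.47). Col3a1 differed by -0.04 (-0.63 to 0.54) in wild type and by -0.72 (-1.30 to -0.13, adjusted p = 0.184) in knockout. A change of more than about 1 log2 unit thus lay outside all of these intervals, from the brightest probes, except those of Col1a1 in wild type and Col3a1 in knockout. Without untreated knockout array 1 the knockout values were 0.15 for Col1a1, 0.21 for Col1a2 and -0.39 for Col3a1, so the first 2 changed sign. Dimmer Col1a1 probes A_51_P377094 and A_52_P658611 were above background on 15 and 7 arrays. They gave 0.54 (-0.72 to 1.81) and 0.36 (-1.09 to 1.81) in wild type. In knockout they gave 0.35 (-0.92 to 1.61) and 1.01 (-0.43 to 2.46), opposite in sign to the brightest probe, and none was called.

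All 3 collagens had a higher mean in untreated knockout than in untreated wild type, by 0.81 for Col1a1 (0.12 to 1.49, adjusted p = 0.18), 0.48 for Col1a2 (-0.04 to 1.00, adjusted p = 0.295) and 0.76 for Col3a1 (0.17 to 1.35, adjusted p = 0.145). The dimmer Col1a1 probes A_51_P377094 and A_52_P658611 gave 0.37 and -0.02 there. None was called, and of the 10 members 0 were called between untreated genotypes, where 2.82% of all genes were (2.06% higher in knockout, 0.758% lower; 3 members had an unadjusted p under 0.05). Without untreated knockout array 1 the differences were 0.44, 0.23 and 0.43. On that array the summed level of 6 smooth muscle markers, as multiples of the 75th percentile, was 42.5 against 17.0 to 20.7 on the other 3 of its group. Summed levels were also the highest of the group there for portal fibroblast and mesothelial (9.80 against 5.64 to 7.87), Kupffer cell and macrophage (161 against 83.0 to 113) and lymphoid and myeloid blood cell markers (10.2 against 4.41 to 5.43). The same held for cholangiocyte (50.4 against 13.6 to 17.8), endothelial (82.5 against 60.4 to 65.8) and hepatocyte markers (5325 against 3630 to 3937). The mean log2 level of the hepatocyte markers was the lowest of the group there (7.37 against 7.44 to 7.57). For stellate markers the sum on that array was not the highest (78.5 against 67.7 to 80.1). Their mean log2 level was the highest of the group there (0.16 against -0.14 to 0.01). Whether these have a part in the collagen values was not tested. In treated livers the genotypes differed by 0.19, 0.08 and 0.08 for the 3 genes, each with an interval around 0. Of the 10 members 0 were called by limma between treated genotypes, where 22.3% of all genes were (14.1% higher in knockout and 8.21% lower), and 0 had an unadjusted p under 0.05.

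Of the 14 other collagens on the list, all tested, 3 rose and 1 fell in wild type (list median 0.36, 9 of 14 positive, 12% of all genes called). In knockout 2 fell (median -0.12, 4 of 14 positive, 3.59% of all genes called). Col8a1, a short-chain collagen of vessel walls, fell in both. Its levels were -0.35, -0.32, -0.42 and -0.51 in untreated and -1.72, -1.35, -1.22 and -1.43 in treated wild type (log2 -1.03, SE 0.24, adjusted p = 0.0122), and 0.75, -0.31, -0.28 and -0.53 in untreated and -1.05, -1.10, -1.47 and -1.74 in treated knockout (log2 -1.25, SE 0.24, adjusted p = 0.0106). The knockout call of Col8a1 was lost under normexp (-0.90, adjusted p = 0.11) and with only the groups compared (adjusted p = 0.11). Col4a1, a chain of basement membrane collagen, rose by 0.84 in wild type (SE 0.24, adjusted p = 0.0344), a call lost without any of 6 wild-type arrays (lowest 0.71, without untreated array 2). It was also lost under 2 other settings, lowest under normexp (0.72, adjusted p = 0.068). Leaving out treated wild-type array 4 left 2 collagens called higher and 1 lower in wild type.

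Col6a2, a chain of the beaded microfibril collagen VI, moved in opposite directions in the 2 genotypes. It stood at -2.88, -3.68, -3.39 and -3.82 in untreated and -2.66, -2.61, -2.42 and -2.22 in treated wild type, and at -1.38, -2.24, -2.38 and -2.14 in untreated and -3.00, -3.45, -3.15 and -3.64 in treated knockout. Col6a2 rose by 0.96 in wild type (SE 0.24, adjusted p = 0.0171), fell by 1.27 in knockout (log2 -1.27, SE 0.24, adjusted p = 0.00994), and the interaction was -2.24 (SE 0.34, adjusted p = 0.00318). Untreated knockout exceeded untreated wild type by 1.41 (adjusted p = 0.00891), and treated knockout was lower than treated wild type (log2 -0.83, adjusted p = 0.0226). Under normexp the 5 values of Col6a2 kept their direction and none was called (0.41, -0.49, -0.90, 0.74 and -0.16). The wild-type call was also lost without untreated wild-type array 2 (0.88, adjusted p = 0.061), the knockout call with the mean of the probes (-0.54, adjusted p = 0.071), and the treated difference without treated wild-type array 4 (-0.74) or treated knockout arrays 2 (-0.78) or 4 (-0.72) or with the mean of the probes (-0.43, adjusted p = 0.058). With only the groups compared, the knockout call (adjusted p = 0.065) and the untreated call (adjusted p = 0.074) were lost.

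Col15a1, a basement membrane collagen, was higher in knockout than in wild type without dexamethasone (log2 1.28, SE 0.33, adjusted p = 0.0492) and with it (log2 1.77, SE 0.33, adjusted p = 0.00177). It stood between -3.45 and -2.70 in untreated and -3.83 and -3.02 in treated wild type, against -2.5 to -0.77 and -2.2 to -1.18 in knockout. The untreated call of Col15a1 was lost without any of 14 of the 16 arrays, with values of 0.97 without untreated knockout array 4 to 1.38 without untreated wild-type array 3. It was also lost under 6 other settings, lowest under normexp (0.77, adjusted p = 0.2). Without untreated knockout array 1, limma called 1 of these 14 collagens between untreated genotypes, against 2 with it, where 2.82% of all genes were called.

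Enzymes that process and crosslink collagen gave no call with dexamethasone by limma (0 of 17 tested of 20 listed, with 1 at an unadjusted p under 0.05 in each genotype), where 12% of all genes were called in wild type and 3.59% in knockout. Between genotypes, the prolyl hydroxylase subunit P4ha2 was lower in untreated knockout (log2 -0.49, SE 0.12, adjusted p = 0.0437), although limma did not call it without any of 13 arrays or under 7 other settings (highest adjusted p = 0.16). The procollagen C-proteinase Bmp1 was lower in treated knockout (log2 -0.62, SE 0.11, adjusted p = 0.00169), with arrays between 3.64 and 3.89 in wild type and between 2.99 and 3.19 in knockout. Bmp1 was not called with the mean of its probes (-0.50, adjusted p = 0.055).

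Among 20 tested of 22 listed matrix glycoproteins and proteoglycans, 4 rose and none fell in wild type, with a list median of 0.33 beside -0.03 over all genes. None was called in knockout by limma (median -0.03, 5 at an unadjusted p under 0.05). Over all genes 12% were called in wild type and 3.59% in knockout. For the interaction limma called none of the 20 (median -0.35, 3 at an unadjusted p under 0.05). Postn, periostin, stood at -0.59, -0.32, -0.20 and 0.04 in untreated and 0.59, 0.38, 0.47 and 0.67 in treated wild type, a rise of 0.79 (SE 0.17, adjusted p = 0.00719). In knockout it differed by 0.48 (SE 0.17, adjusted p = 0.141), and the interaction was not called (-0.32, adjusted p = 0.596). Fbln5, an elastic fibre protein, rose by 0.63 (SE 0.19, adjusted p = 0.0426) and the related Efemp1 by 0.58 (SE 0.16, adjusted p = 0.028) in wild type. The call of Fbln5 was lost without any of 10 arrays (0.54 to 0.68) and under 6 other settings, lowest with the mean of its probes (0.38, adjusted p = 0.22). That of Efemp1 was lost without untreated wild-type arrays 1 (0.49) or 2 (0.55) or treated ones 2 (0.56) or 4 (0.49). It was also lost under 2 other settings, lowest under normexp (0.50, adjusted p = 0.08). Without treated wild-type array 4 the list had 2 calls in wild type in place of 4, and without untreated knockout array 1 it had 5 in wild type and 1 in knockout.

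Acta2, smooth muscle alpha-actin and the usual mark of an activated stellate cell, was read by 5 probes, of which 1 was above background on no array. The brightest, whose sequence is printed above, stood at 2.00, 1.57, 1.93 and 1.39 in untreated and 2.36, 2.34, 2.62 and 1.93 in treated wild type. In knockout it stood at 1.16, 1.68, 1.43 and 1.71 untreated and 2.41, 1.46, 1.70 and 1.85 treated. Treated and untreated arrays overlapped in both genotypes. The change of Acta2 was 0.59 (0.13 to 1.05, adjusted p = 0.0912) in wild type and 0.36 (-0.10 to 0.83) in knockout. Treated knockout was below treated wild type by -0.46 (-0.92 to 0.00, adjusted p = 0.146), a difference called without treated knockout array 1 (-0.64, adjusted p = 0.042).

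A second Acta2 probe, A_52_P420504 at chr19:33942803-33942862, is printed at 10 spots per array whose SD had a median of 0.0388, and it gave a different pattern. It stood at 0.07, -0.56, 0.06 and -0.23 in untreated and 0.23, -0.06, 0.15 and 2.40 in treated wild type. In knockout it stood at 2.26, 0.99, 0.54 and -0.19 untreated and 1.09, -0.13, -0.02 and 0.00 treated. Treated wild-type array 4 and untreated knockout array 1 stood far above the rest on this probe. On the brightest probe the same 2 arrays, at 1.93 and 1.16, were the lowest of their groups. No comparison of this Acta2 probe was called (for dexamethasone 0.85, adjusted p = 0.352, in wild type and -0.66, adjusted p = 0.616, in knockout). The same holds for the other 2 Acta2 probes that were tested, so the probes of this gene disagree in sign in knockout and in the untreated comparison of genotypes, where they gave -0.23, 0.43, 0.71 and 1.07.

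Des, the intermediate filament desmin, stood at -3.00, -3.13, -2.64 and -2.67 in untreated and -3.00, -2.97, -2.95 and -1.99 in treated wild type, and at -2.33, -2.76, -2.69 and -3.02 in untreated and -2.86, -3.03, -3.13 and -2.93 in treated knockout. The highest 2 arrays were again treated wild-type array 4 and untreated knockout array 1. Des differed with dexamethasone by 0.13 (-0.33 to 0.60) in wild type and -0.29 (-0.75 to 0.18) in knockout, and by -0.11 in wild type without treated array 4. The smooth muscle genes Myh11, the myosin heavy chain, and Cnn1, calponin, were highest on the same 2 arrays. Myh11 was at 0.24 on treated wild-type array 4 and at -0.33 on untreated knockout array 1, against -2.69 to -1.40 on the other 14. Cnn1 was at 1.25 and 0.40 on them, against -4.68 to -0.75 on the others. The summed level of the 6 smooth muscle markers was 28.0 on treated wild-type array 4 against 14.8 to 18.6 on the other 3 of its group. On treated knockout array 1 the sum was as high, 28.2 against 13.0 to 18.0 on the other 3 of that group. The part of these sums in the Des and Acta2 values was not tested. The plot of contractile genes by array shows the levels of Acta2, Des, Myh11 and Cnn1.

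**Figure D3:**
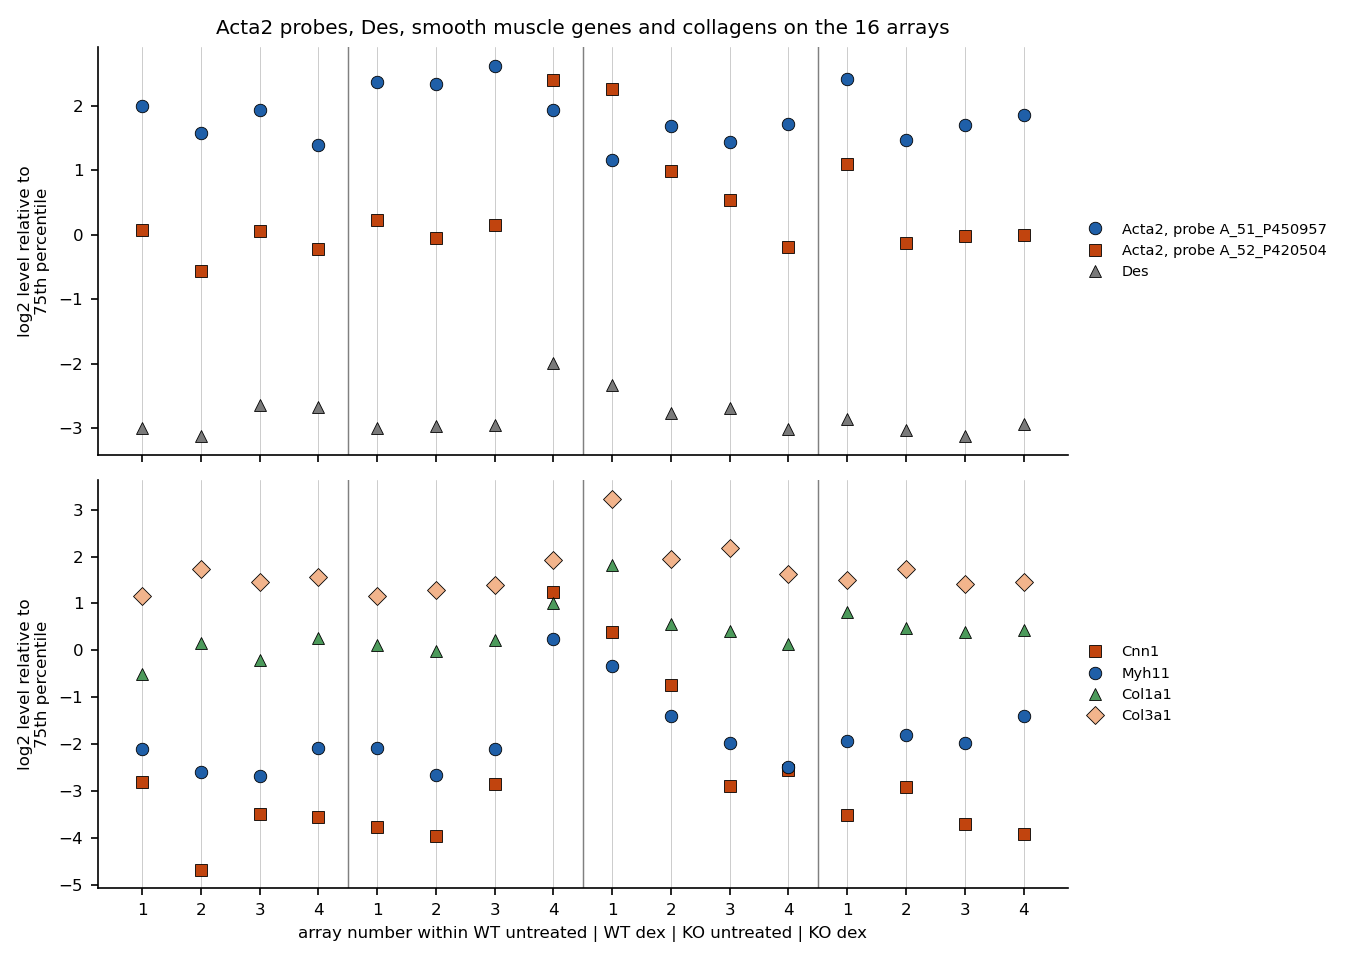
Levels (log2 signal relative to the array's 75th percentile) on the 16 arrays in group order, with grey lines between groups. Top, the 2 brightest Acta2 probes and Des; bottom, Cnn1, Myh11, Col1a1 and Col3a1. Treated wild-type array 4 and untreated knockout array 1 stand above their groups for Acta2 probe A_52_P420504 (2.40 and 2.26), Des (-1.99 and -2.33), Cnn1 (1.25 and 0.40) and Myh11 (0.24 and -0.33), but not for Acta2 probe A_51_P450957.

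Of 12 listed contractile and cytoskeletal genes, which hold all 6 smooth muscle markers, limma called none in any of the 5 comparisons, where 2.82% to 22.3% of all genes were called. At an unadjusted p under 0.05 there were 2 in wild type, 1 in knockout, 2 for the interaction, 3 between untreated and 1 between treated genotypes. The list median was 0.26 in wild type and 0.01 without treated wild-type array 4. In knockout it was -0.35, and -0.10 without untreated knockout array 1, and between untreated genotypes it was 0.51, and 0.35 without that array. Without untreated knockout array 1, 1 gene of this list was called lower in wild type, and without treated wild-type array 4, 1 was called higher in treated knockout than in treated wild type.

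Lrat makes the retinyl esters that stellate cells store, and 2 probes read it. The brighter stood at -0.06, -0.47, -0.18 and -1.08 in untreated and -0.52, -0.55, -1.43 and -0.75 in treated wild type. In knockout it stood at -0.77, 0.30, -0.57 and -0.31 untreated and -0.46, -0.98, -1.29 and -1.55 treated. Treated and untreated arrays overlapped in both genotypes, and the lowest array of each genotype was a treated one. The change of Lrat was -0.36 (-1.01 to 0.28) in wild type and -0.73 (-1.38 to -0.09, adjusted p = 0.222) in knockout, and none was called. The second Lrat probe, A_51_P350033 at chr3:83000659-83000718, gave -0.72 (-1.47 to 0.03, adjusted p = 0.214) and -0.88 (-1.63 to -0.13, adjusted p = 0.231), so both probes had the same sign in both genotypes and neither was called.

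Other retinoid genes gave 1 rise and 1 fall in wild type among 14 tested of 16 listed (median 0.02), where 12% of all genes were called. Bco1, which cleaves beta-carotene, rose by 0.96 (SE 0.25, adjusted p = 0.0225) from -1.61, -1.83, -1.85 and -1.30 to -0.09, -0.72, -0.81 and -1.15. Its call was lost without untreated arrays 2 (0.89) or 3 (0.89) or treated array 1 (0.76). Dhrs3, which reduces retinaldehyde, fell by 0.47 (log2 -0.47, SE 0.11, adjusted p = 0.0114), from between 4.85 and 5.18 to between 4.42 and 4.69, a call lost under normexp (-0.44, adjusted p = 0.11). No retinoid gene was called in knockout by limma, with 1 at an unadjusted p under 0.05.

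Between treated genotypes, Rarb and Dhrs3 were higher in knockout. Rarb, a retinoic acid receptor, stood at -1.16, -0.84, -1.75 and -1.51 in treated wild type and 0.20, 0.15, -0.03 and 0.10 in treated knockout (log2 1.42, SE 0.27, adjusted p = 0.00207). Dhrs3 was 0.53 higher (SE 0.11, adjusted p = 0.00295, and 0.37, adjusted p = 0.12, under normexp).

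Timp1, an inhibitor of matrix metalloproteases, was read by 1 probe above background on all 16 arrays and by 2 probes above it on 0 and 4 arrays. It stood at 1.43, 1.04, 1.29 and 1.22 in untreated and 1.02, 0.84, 1.55 and 1.15 in treated wild type. In knockout it stood at 0.57, 1.32, 0.81 and 1.10 untreated and 0.99, 0.75, 1.28 and 1.41 treated. All groups overlapped. On that 1 probe the change of Timp1 was -0.10 (-0.52 to 0.32) in wild type and 0.16 (-0.26 to 0.58) in knockout, intervals that reach no further than 0.58 in either direction. The 2 dimmer probes were not tested, so this bound is not checked by another probe.

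Timp4, another inhibitor of the family, and Mmp15, a membrane-type metalloprotease, were the called genes among 12 tested of 18 listed. Calls over all genes were 12% in wild type, 4.6% for the interaction and 22.3% between treated genotypes. Timp4 stood at -4.63, -5.90, -4.68 and -4.36 in untreated and -1.37, -2.29, -1.49 and -3.24 in treated wild type, a rise of 2.80 (SE 0.44, adjusted p = 0.0014, and 1.20 under normexp). In knockout it stood at -3.28, -3.83, -4.06 and -4.01 untreated and -3.81, -5.43, -5.08 and -4.94 treated, and the interaction was -3.82 (SE 0.62, adjusted p = 0.00434). Timp4 was above background on 2 of 4 arrays in untreated wild type and in treated knockout, and under normexp its interaction was -1.20 and not called (adjusted p = 0.31), nor was its treated difference of -0.81 (-2.72, adjusted p = 0.000761, in the main processing). Mmp15 fell by 1.40 in wild type (log2 -1.40, SE 0.20, adjusted p = 0.000907), from 1.51, 1.03, 0.88 and 0.68 to -0.68, -0.20, -0.28 and -0.33. In knockout it differed by 0.20 (SE 0.20), with an interaction of 1.60 (SE 0.29, adjusted p = 0.00769), and it was 1.77 higher in treated knockout than in treated wild type (adjusted p = 7.64e-05).

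**Figure D4:**
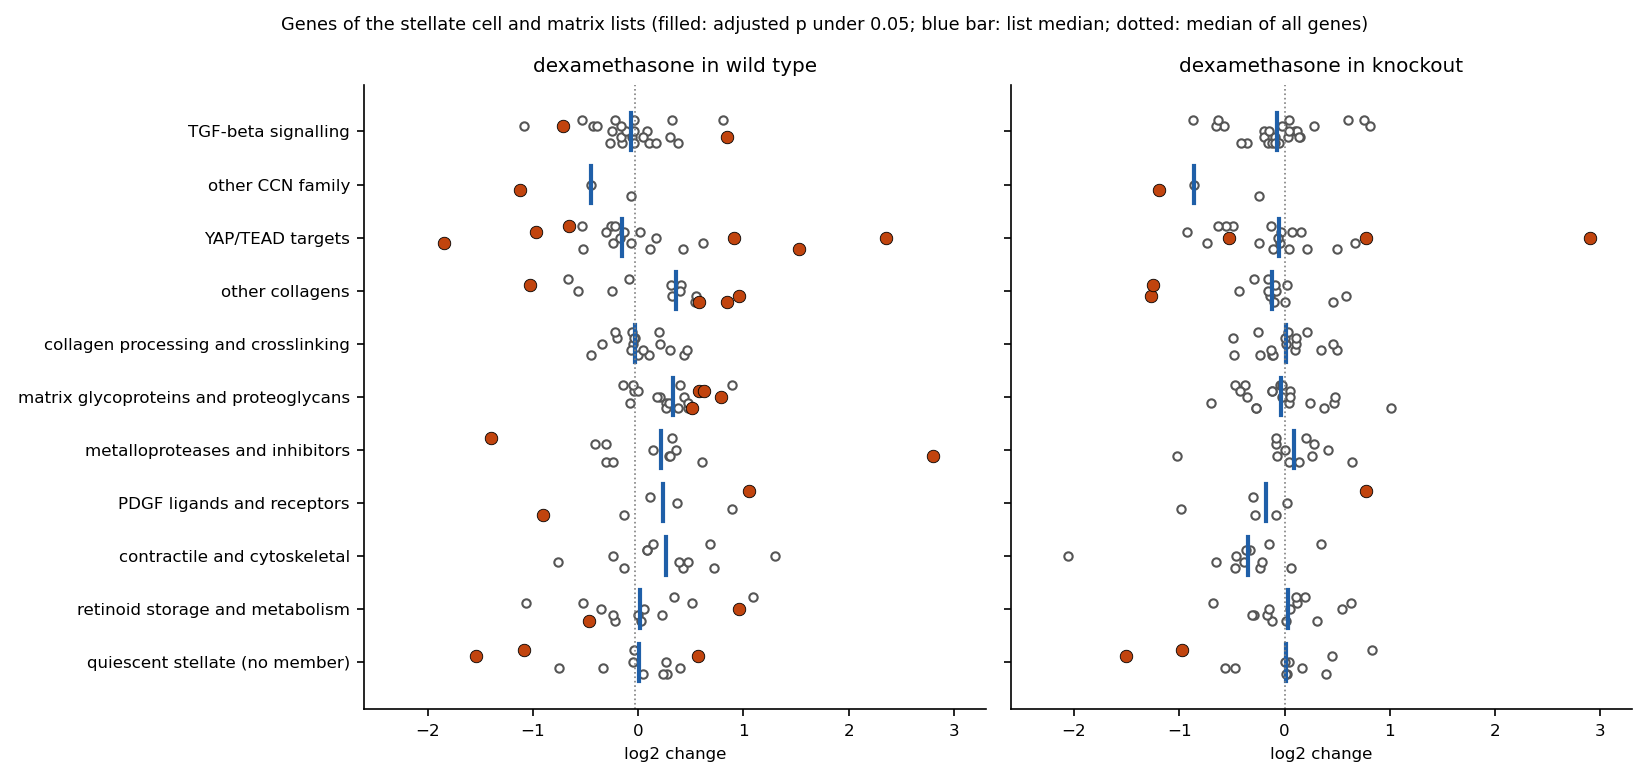
Log2 change with dexamethasone in wild type (left) and knockout (right) of every tested gene of 11 lists, 1 point per gene, with the list median as a blue bar and the median of all genes dotted. Filled points passed an adjusted p of 0.05 (limma). Ccn2 is the highest point of the YAP/TEAD row in both genotypes, and matrix glycoproteins have 4 filled points in wild type (median 0.33) and none in knockout (median -0.03). No gene of the matrix glycoprotein list was called for the interaction.

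Of 12 stellate markers that are no members, 1 rose and 2 fell in wild type, and 2 fell in knockout, with medians of 0.01 and 0.02 (12% and 3.59% of all genes called). Ngfr, the p75 neurotrophin receptor, stood at -0.55, -0.60, 0.36 and -0.21 in untreated and -1.87, -1.54, -1.72 and -2.04 in treated wild type (log2 -1.54, SE 0.22, adjusted p = 0.000907). In knockout Ngfr stood at -0.38, 0.10, 0.21 and -0.30 untreated and -1.38, -1.82, -1.93 and -1.28 treated (log2 -1.51, SE 0.22, adjusted p = 0.00338, and -0.41, adjusted p = 0.16, with the mean of its probes). Pth1r, the parathyroid hormone receptor, fell by 1.08 (log2 -1.08, SE 0.15, adjusted p = 0.000762) and by 0.97 (log2 -0.97, SE 0.15, adjusted p = 0.00408). Ednrb, an endothelin receptor, rose by 0.57 in wild type (SE 0.17, adjusted p = 0.0402). Its call was lost without any of 7 wild-type arrays and under 4 other settings, lowest under normexp (0.41, adjusted p = 0.22). Without untreated knockout array 1, 2 of the 12 rose in knockout and 2 fell, and without treated wild-type array 4 none rose in wild type.

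The summed level of these 12 stellate markers ranged from 63.4 to 100 in untreated and 81.6 to 92.0 in treated wild type, and from 67.7 to 80.1 in untreated and 69.9 to 80.8 in treated knockout, so treated and untreated ranges overlapped in both genotypes. Of 14 endothelial markers 1 rose and 3 fell in wild type, and 1 rose and 2 fell in knockout. For this and the next lists, 12% of all genes were called in wild type and 3.59% in knockout. The endothelial sum ran from 54.6 to 74.9 untreated and 51.3 to 58.4 treated in wild type. Of 9 lymphoid and myeloid markers 3 were called lower in each genotype (list medians -0.72 and -0.92), and the other 6 were not called. In wild type 1 of the 3, S100a9 (log2 -2.01), lost its call without any of 10 arrays, with values of -1.64 without untreated wild-type array 3 to -2.12 without treated wild-type array 4. The call of S100a9 was also lost under 5 other settings (highest adjusted p = 0.08). The sum of the 9 markers ran from 3.28 to 4.99 untreated and 2.12 to 3.12 treated in wild type, and from 4.41 to 10.2 untreated and 2.34 to 4.29 treated in knockout. Their part in the Ccn2 and Tgfb1 changes was not tested. Kupffer cell and macrophage markers gave no call with dexamethasone by limma in either genotype (0 of 12, with 1 and 3 at an unadjusted p under 0.05).

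The genes whose level followed that of Ccn2 most closely over the 16 arrays were Mylip, a ubiquitin ligase that degrades the LDL receptor (Pearson r 0.935), Abcc9, a regulatory subunit of potassium channels (0.924), and Ggt5, a gamma-glutamyl transferase (0.911). For Col1a1 they were its partner chain Col1a2 (0.953), the ligand Tgfb3 (0.920) and the metalloprotease Adam15 (0.900). For Lrat they were Rex2 (0.826), Zfp985 (0.822) and Znf41-ps (0.808). These are the highest values among 15127 named genes, they include the differences between the 4 groups, and the points share arrays and scaling, so they are given as a description.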

How the data were processed

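Per the submitters' processing notes the software was Agilent Feature Extraction 9.5. The deposited processed signal is an intensity, background-subtracted within the array, and the mean and background signals are an intensity too, per the file headers. The largest difference of the deposited series table from the processed signal was 0. Flags of the deposited files (other, neither signal nor test) mark spots above background, saturated or outlying. Probe places and sequences come from the deposited annotation (mm7).

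The log2 processed signal was averaged over the spots of a probe, without outlying spots (0.306%) or the 1639 controls among 45018 spots, and the 75th percentile of the array was subtracted. Of the member spot values 51 of 928 were dropped as outlying, and none was saturated. A probe was kept where well above background on at least 3 of 4 arrays of any group (26792 of 41174), and each gene was read from its brightest kept probe. All 16 arrays were fitted as 4 group means with limma 3.58.1 in R 4.3.3, with 12 residual degrees of freedom before moderation, two-sided, and Benjamini-Hochberg adjustment over 18474 genes, of which 24 had a missing value. The step was tested on simulated data. The comparisons share control groups, so their values are set side by side only. Figures used matplotlib 3.10.9 in Python 3.11.15.

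The members and lists were chosen with earlier results of these data known. Named were all members, up to 3 called genes per list and comparison with the largest change, if well above background throughout 1 of the groups compared, Nr3c1, and the 3 closest genes by correlation for Ccn2, Col1a1 and Lrat. Not all genes the rule names are described, a choice made after their values were seen. Myh11 and Cnn1 were also named after their values were seen. Slide could not enter as a block because each holds 1 group. The replicate numbers were not treated as pairs: over 24 pairs their residuals correlated between -0.183 and 0.347, and 10 passed 0.1.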

Additional observations from a re-analysis of the deposited data

Results flagged for a closer look

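Des on treated wild-type array 4 stood at -1.99, away from the other 3 arrays of its group at -3.00 to -2.95. The gap was 0.949 of the range of the group, above Dixon's 95% critical value for 4 samples. The 10 members in 4 groups made 40 such checks, and chance alone flags about 1 in 20.

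In 5 listed genes the response to dexamethasone differed between the genotypes by the test of the interaction, which called 4.6% of all genes. They were 1 of 20 YAP/TEAD targets, 1 of 14 other collagens, 2 of 12 metalloproteases and inhibitors and 1 of 9 blood cell markers. The other lists had none. For Gadd45a the interaction was 2.51 and for Mmp15 1.60, more positive in knockout. For Col6a2 it was -2.24, for Timp4 -3.82 and for the T cell receptor subunit Cd3e -1.11, more negative in knockout. Col6a2 (-0.90) and Timp4 (-1.20) were not called under normexp background correction. None of the 10 stellate and matrix genes differed in this way, with intervals of -0.66 to 1.77 for Ccn2 and -0.46 to 0.57 for Tgfb1.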

How the results depend on the processing

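No value reversed its direction with a call under any setting. Ccn2 was called in both genotypes under all of them, from 2.17 to 2.42 in wild type and 2.75 to 2.97 in knockout over the 13 settings that keep every array or leave out the 2 dimmest. That last setting, untreated wild-type array 4 and untreated knockout array 1 left out, was chosen after seeing the data. Ccn2 was read by 1 probe at 1 spot, above background on all 16 arrays. The filters on dim probes, the mean of probes and the use of the series table therefore could not change its estimate. Of 73 named values outside the members, 30 lost their call without some 1 array and 29 under normexp.

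Normexp background correction called 1191, 47 and 107 genes for dexamethasone in wild type, in knockout and the interaction, 85 between untreated and 2360 between treated genotypes, against 2214, 664, 849, 521 and 4127, and 1 member in wild type (Tgfb1 lost). Quantile normalization called 1091 genes in knockout and 2 members, as Tgfb1 was added (-0.67, adjusted p = 0.015). No filter on dim probes gave 416 in knockout, 536 for the interaction and 266 untreated. A stricter filter added Tgfb1 in knockout, making 2 members (adjusted p = 0.048). Array weights gave 4999, 1812, 2726, 1582 and 6671 genes, with 3 members in knockout (Lrat -1.09, Tgfb1 -0.42) and 2 between treated genotypes (Tgfb1 0.32, Acta2 -0.57), and in wild type Acta2 was also called (0.57). Only the groups compared gave 139 in knockout and 90 untreated. Without the 2 dimmest arrays there were 3363, 1075 and 1507 genes for the 2 responses and the interaction, 2 members in knockout and 1 between treated genotypes (Tgfb1 0.33). The causes were not tested.

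Leaving out 1 array at a time gave 1208 (without untreated wild-type array 2) to 3274 (without untreated knockout array 1) genes in wild type, 312 (treated knockout array 3) to 930 (untreated knockout array 1) in knockout, 498 to 1476 for the interaction, 157 to 643 untreated and 2931 to 5546 treated. Members called were 1 to 2 in wild type, 1 to 2 in knockout and 0 to 1 between treated genotypes. With the replicate number as a block, Ccn2 stood at 2.35 and 2.90 and 2174, 804, 1065, 776 and 4151 genes were called, and changed no call of a member. Of 24 array pairs 12 correlated best with their own number, a hint of pairing from the data and not from the design, but only 10 correlated above 0.1, so the numbers were not treated as pairs. Slide as a block was not run, since each slide held 1 group.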
